A study of Equus caballus with 26 samples.

Results

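The genes described here are the 3 inhibitor of DNA binding genes ID1, ID2 and ID3 and 7 genes of the BMP-TGF beta pathway (BMPR2, TGFBR1, TGFBR2, ACVR1, SMAD1, SMAD6 and SMAD7), measured in the blood of endurance horses before and after a 160 km ride. They are 10 of the 24415 gene names on the array. The genes were chosen by name from their values at rest and after the ride in both sets of horses. Their differences between rest and ride are therefore given as a description and carry no test. Comparisons between the sets, between the sexes and between pairs of genes use the same values, so their p-values are not independent of that choice. A gene was found by its name on the array, its transcript identifier or its annotated description, and its brightest probe was used.

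Transcripts of whole blood, drawn into PAXgene RNA tubes, were measured on 26 1-colour (Cy3) arrays of a custom equine design. T0 was at rest before the competition and T1 immediately after it. The experimental set comprised 3 geldings, horses 2, 32 and 41, each sampled at T0 and at T1. The validation set comprised different horses at each time, 7 at T0 (3 females and 4 geldings) and 13 at T1 (3 females and 10 geldings). All were pure or part Arabian endurance horses, their breed being given only as other in the labels, and no age was given there. Rest and ride were the only conditions compared, there was no unexercised group sampled at the later time, and PAXgene blood mixes all circulating cells. By the study's methods, all horses sampled at T1 completed the ride, whereas most of the study's validation horses sampled at T0 were later eliminated at a veterinary check. The arrays used here are part of those sets, and the labels do not say which of the 7 horses at T0 completed. Time and completion therefore cannot be told apart in the validation set. Between 60.2% and 75.3% of the probes of an array were well above the local background, and the 10 genes passed the filter on dim probes in every comparison. The small number of arrays, 3 against 3 in the experimental set, limits the precision of all values. The labels give horses as the replicates.

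ID proteins are helix-loop-helix proteins with no DNA-binding region. They bind E proteins, the transcription factors that drive lymphocyte development, and keep them off DNA. Their genes are classical targets of bone morphogenetic proteins (BMPs): a BMP joins a type II receptor such as BMPR2 to a type I receptor such as ACVR1, which phosphorylates SMAD1 and its relatives, whereas TGF beta uses TGFBR2, TGFBR1 and the SMADs SMAD2 and SMAD3. SMAD6 and SMAD7 are inhibitory SMADs that dampen the receptors. In blood, ID2 is best known from natural killer and innate lymphoid cells and ID3 from T and B lymphocytes.

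The probes are 60 bases long, and 30 bases from the middle of those that carry the main differences are shown, read from the array annotation 5′ to 3′ in the probe's own orientation. The first stretch is shared by all 5 ID1 probes, which overlap over 56 bases and so are near copies of one measurement. The ID2, ID3, BMPR2 and TGFBR2 stretches come from the brightest, or the sole, probe of each gene.
ID1: gaatattgttttacaatagttctgtggggt
ID2: gacctggactgtgatcgtagttatttatga
ID3: ccagaacttgtgatctccaacgacaagagg
BMPR2: ctaaaggtcattaaaacagaagcaaattaa
TGFBR2: ctggctcaaccaccagggcatccagatggt
The longest run of bases shared by any ID1 and ID2 probe was 7, by any ID1 and ID3 probe 5, and by any ID2 and ID3 probe 7. The array annotation, whose header names the EquCab1 assembly, places the ID1 probe used at chr22:22637655-22637714, the ID2 probe at chr15:81223781-81223840 and the ID3 probe at chr2:29734795-29734854. The TGFBR2 probe was given the interval chr16:53264490-53267432, longer than the probe itself. The BMPR2 probe lay on unplaced sequence. Whether a probe falls in a coding exon or an untranslated region was not analysed here. Levels below are log2 signals minus the 75th percentile of the same array, so a negative level is a probe dimmer than that percentile, and levels are compared only within a gene.

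ID1 showed the largest difference of the 10 genes, and ID1, ID2 and ID3 did not move alike. After the ride ID1 was higher by 4.82 on the log2 scale among the experimental horses and by 3.92 among the validation horses, from a signal near background at rest, and by 2.24 and 1.86 with another background correction and normalization, whereas ID3 was 3.02-fold and 2.86-fold lower and ID2 1.33-fold and 1.30-fold higher.

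In horse 2, ID1 went from a level of -5.51 at T0 to -0.06 at T1, in horse 32 from -7.10 to -3.15, and in horse 41 from -4.89 to 0.17. Every T1 level lay above every T0 level, and horse 32 was the lowest of the 3 at both times. The log2 difference was 4.82 (SE 0.37, n = 3 pairs), as a difference of measured signals. Each SE given with a difference is that of the limma fit, which pools the spread of a gene with that of all genes tested. In horses 2 and 32 the T0 signal was not well above background, so their changes, and the mean, carry that limit. In horse 41, well above background at both times, the change was 5.06. Over the validation horses ID1 ran from -6.49 through a median of -5.19 to -3.54 at T0 (n = 7) and from -2.96 through -1.34 to 0.90 at T1 (n = 13). All 13 horses at T1 were above all 7 at T0, a log2 difference of 3.92 (SE 0.42). Within the 5 scan days that held validation arrays of both times, ID1 was higher at T1 by 3.20 to 6.26 on the log2 scale. Such a day held only 1 or 2 arrays at T0 and 1 to 4 at T1, and the 6.26 set 1 array against 1. Leaving out any single validation array gave values from 3.70 to 4.19.

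At rest the ID1 signal was close to background. The probe was well above background on 1 of 3 experimental and 6 of 7 validation arrays at T0, and on all 16 arrays at T1. Another setting started from mean spot signals and local background in place of the processed signal. It used normexp correction with an offset of 50 added to every signal, followed by quantile normalization. The ID1 difference was then 2.24 in the experimental and 1.86 in the validation set. With quantile normalization alone it was 4.88 and 3.95, and in the values the authors deposited it was 2.34 and 1.95. The other 4 ID1 probes gave 4.85 to 5.23 and 3.89 to 4.35.

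**Figure D1:**
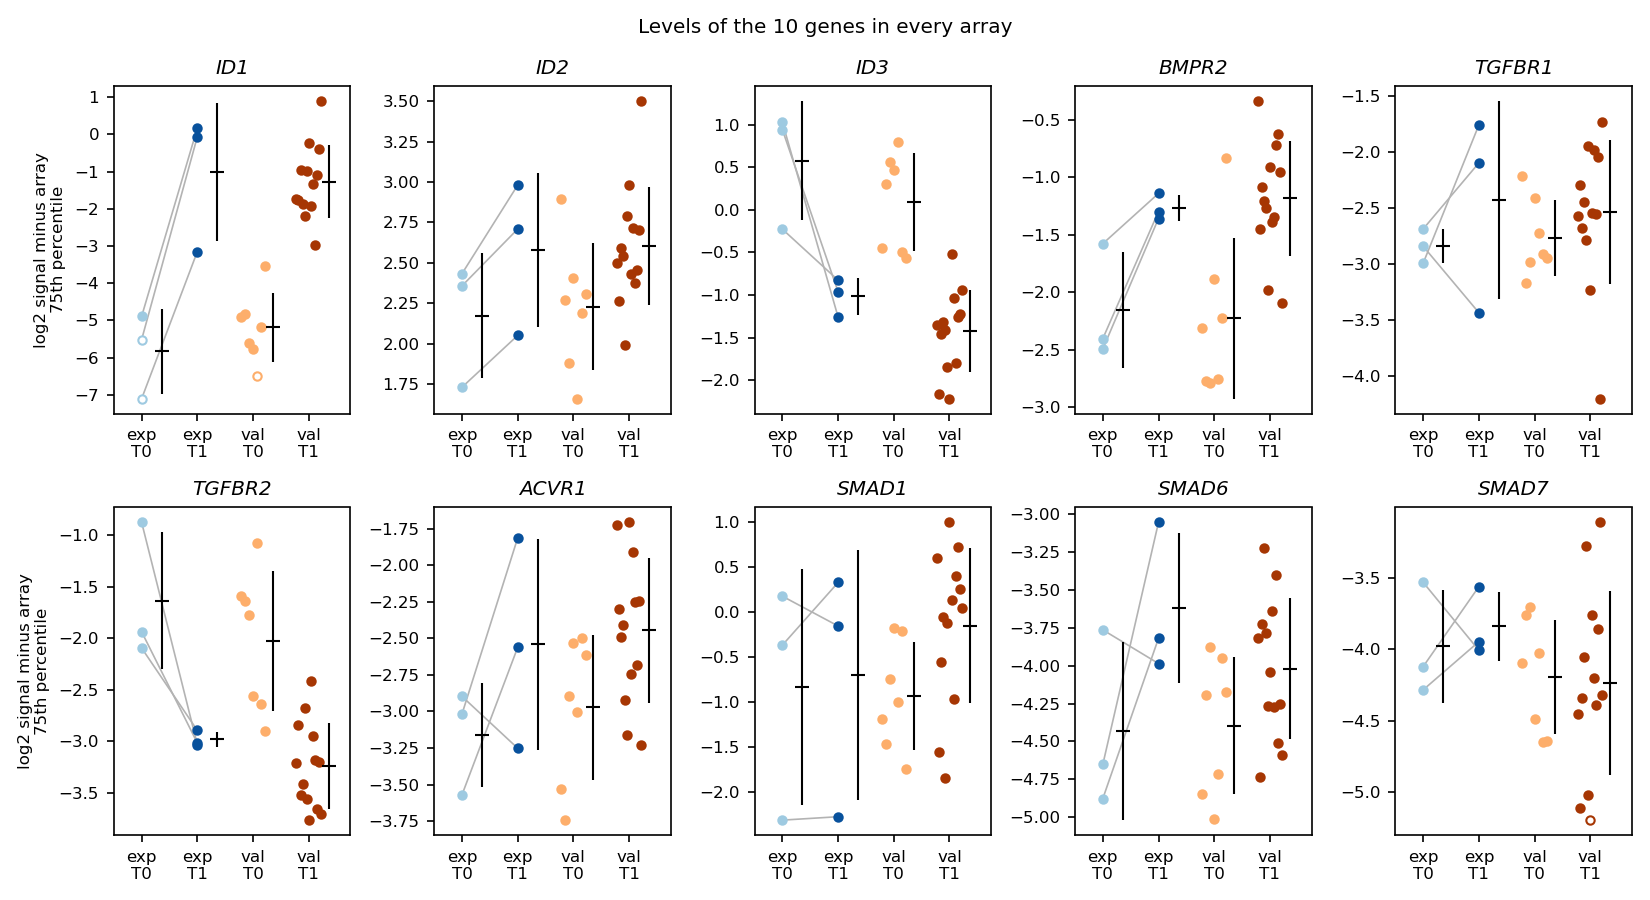
Levels of the 10 genes on every array, as log2 signal minus the 75th percentile of the array (y axis, its range differing between panels), for experimental (exp) and validation (val) horses at T0 and T1. Grey lines join the 2 arrays of a horse, open circles are arrays on which the probe was not well above background, and bars are mean ± SD; the ID1 values at T1 all lie above those at T0, while the ID2 values at T0 and T1 share most of their range.

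ID3 was lower at T1 in each of the 3 experimental horses. It went from 0.94 to -0.96 in horse 2, from 1.03 to -1.26 in horse 32 and from -0.23 to -0.83 in horse 41. Horse 41 started lowest and showed the smallest change, and the T0 and T1 levels did not overlap. The log2 difference was -1.60 (SE 0.39). Validation levels of ID3 ran from -0.56 through a median of 0.31 to 0.79 at T0 and from -2.22 through -1.35 to -0.52 at T1. There 12 of 13 horses at T1 were below every horse at T0, the exception being horse 24 at -0.52, and the log2 difference was -1.52 (SE 0.23). ID3 was lower at T1 within all 5 scan days, by 0.95 to 3.01 on the log2 scale, the largest again from 1 array against 1.

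ID2 differed little between the times. It went from 2.36 to 2.71 in horse 2, from 1.73 to 2.05 in horse 32 and from 2.43 to 2.98 in horse 41, so that all 3 changes were upward while the 2 groups overlapped. The log2 difference was 0.41 (limma SE 0.31), while the SD of the 3 changes themselves was 0.12. Across the validation arrays ID2 ran from 1.66 through 2.27 to 2.89 at T0 and from 1.99 through 2.55 to 3.50 at T1, a difference of 0.38 (SE 0.18) with 2 of 13 horses at T1 above every horse at T0. Its 3 probes gave 0.41 to 0.61 in the experimental and 0.38 to 0.54 in the validation set. ID2 was higher at T1 within 4 of the 5 scan days. With normexp correction and quantile normalization its differences were 0.16 and 0.24, and in the deposited values 0.17 and 0.26.

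Among the receptors, the BMP and TGF beta type II receptors differed in opposite directions. BMPR2, the BMP type II receptor, was higher at T1, by 0.89 (SE 0.33) on the log2 scale in the experimental and 1.04 (SE 0.26) in the validation set. TGFBR2, the TGF beta type II receptor, was lower, by -1.35 (SE 0.37) and -1.21 (SE 0.24). The TGFBR2 differences were -0.76 and -0.64 with normexp correction and quantile normalization, and -0.79 and -0.69 in the deposited values.

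BMPR2 went from -2.49 to -1.36 in horse 2, from -2.40 to -1.30 in horse 32 and from -1.58 to -1.14 in horse 41, with no overlap between the times. Validation horses ran from -2.79 through -2.31 to -0.84 at T0 and from -2.10 through -1.21 to -0.34 at T1. The T0 horse at -0.84, horse 47, lay above 10 of the 13 horses at T1, and the next T0 horse was at -1.89. Without horse 47 the difference was 1.27. At T0 the same horse was the highest for ID1 and the lowest for ID3, TGFBR2 and SMAD1. Without it the log2 differences of these genes were 4.19, -1.62, -1.36 and 0.65. BMPR2 had 1 probe and was higher at T1 within 4 of 5 scan days.

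TGFBR2 went from -2.09 to -2.89 in horse 2, from -0.87 to -3.03 in horse 32 and from -1.94 to -3.02 in horse 41. The 3 horses spread widely at T0 (SD 0.66) and closely at T1 (SD 0.08), with no overlap. Over the validation horses TGFBR2 ran from -2.90 through -1.77 to -1.07 at T0 and from -3.77 through -3.21 to -2.42 at T1, with 10 of 13 horses at T1 below every horse at T0. All 6 probes were lower at T1, by 1.11 to 1.35 in the experimental and 0.94 to 1.21 in the validation set, and 5 of the 6 overlap one another. It was lower at T1 within all 5 scan days.

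ACVR1 and TGFBR1, type I receptors of the BMP and the TGF beta arm, gave changes of either sign among the 3 experimental horses. ACVR1 changed by -0.35, 1.01 and 1.20 on the log2 scale in horses 2, 32 and 41, with a mean of 0.62 (SE 0.39), or 0.39 with normexp correction and quantile normalization. It ran from -3.74 to -2.50 at T0 and from -3.23 to -1.71 at T1 in the validation set, a difference of 0.53 (SE 0.23), with 8 of 13 horses at T1 above every horse at T0. TGFBR1 changed by 1.23, -0.59 and 0.59 in the same 3 horses, with a mean of 0.41 (SE 0.40). In the validation set it ran from -3.16 to -2.21 at T0 and from -4.20 to -1.73 at T1, a difference of 0.22 (SE 0.25), and its 6 probes gave validation differences of 0.13 to 0.54. Leaving out any single validation array gave TGFBR1 differences of 0.16 to 0.36, and scan day in the model gave 0.38.

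The 3 SMADs gave no difference that was alike in all horses. SMAD1, which carries the BMP signal, changed by -0.33, 0.04 and 0.69 in horses 2, 32 and 41, with a mean of 0.13 (SE 0.34). In the validation set it ran from -1.74 to -0.18 at T0 and from -1.84 to 0.996 at T1, a difference of 0.78 (SE 0.34), and 9 of 13 horses at T1 were above every horse at T0. A second, dimmer SMAD1 probe, well above background on 3 of 13 validation arrays at T1, gave 0.31 there and -0.70 in the experimental set. SMAD6 changed by -0.22, 1.06 and 1.60 in the 3 experimental horses, with a mean of 0.81 (SE 0.40), and differed by 0.38 (SE 0.21) in the validation set. With normexp correction and quantile normalization these differences were 0.29 and 0.16, and in the deposited values 0.31 and 0.15. SMAD7, not well above background on 1 validation array at T1, differed by 0.14 (SE 0.34) and by -0.04 (SE 0.26), and its sign turned to 0.04, 0.07 and 0.03 in the validation set under normexp correction with quantile normalization, quantile normalization alone and the deposited values.

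**Figure D2:**
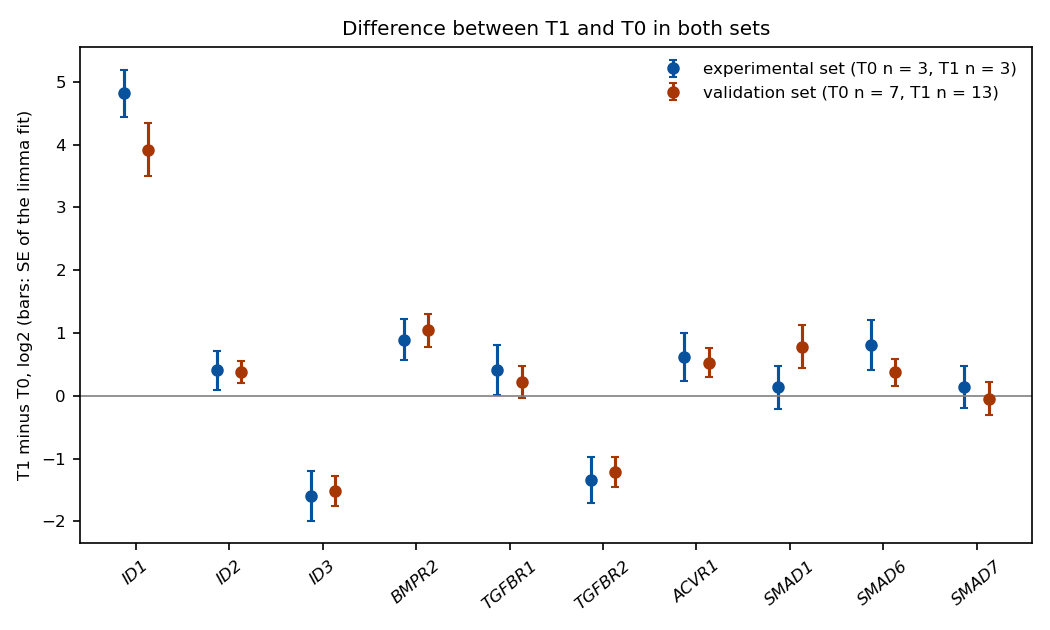
Differences between T1 and T0 on the log2 scale (y axis) for each of the 10 genes, with bars for the SE of the limma fit; blue points are the experimental and brown points the validation set. ID1 stands at 4.82 and 3.92, ID3 and TGFBR2 lie below 0 in both sets, BMPR2 above 0 in both, and the remaining genes lie within 0.9 of 0.

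For reference, the limma fit over all genes called 10.1% of the 17489 gene names tested in the experimental set and 44.2% of the 17401 tested in the validation set at an adjusted p under 0.05. Of the 10 genes, 2 (ID1 and ID3) and 4 (ID1, ID3, BMPR2 and TGFBR2) were among those called, and nothing is read from these counts because the contrast served to choose the genes. The T0 and T1 levels did not overlap for 4 of the 10 in the experimental set, where 35.5% of all gene names tested did not overlap, and for 1 of the 10, ID1, in the validation set, where 2.21% did not.

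Blood cell markers differed between the same samples. All 9 T cell markers had a probe. Their summed level ran from 5.51 to 6.001 at T0 and from 4.40 to 4.51 at T1 in the experimental set, and from 4.74 to 5.97 and from 4.10 to 5.01 in the validation set, where all 9 were called lower at T1. The 7 B cell markers were also all called lower there, with summed levels of 3.49 to 4.70 at T0 and 1.97 to 3.87 at T1. For neutrophils 7 of 10 markers had a probe and 6 were called higher, with summed levels of 7.04 to 9.34 at T0 and 8.62 to 10.77 at T1. Granule genes of immature neutrophils (4 of 7 with a probe, 3 called higher) summed to 0.66 to 3.93 at T0 and 3.15 to 6.74 at T1. Of 7 monocyte markers 3 were called higher and 1 lower, and of 7 natural killer markers 1 higher and 4 lower. Red cell markers (7 of 8 with a probe, 1 of 4 tested called higher) summed to 3.61 to 6.44 at T0 and 6.62 to 7.29 at T1 in the experimental set, with no overlap, and to 3.66 to 8.35 and 5.42 to 9.80 in the validation set. The part of these cell types in the ID1, ID3, BMPR2 and TGFBR2 differences was not tested. In whole blood, fewer cells of a type and less RNA per cell cannot be told apart.

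Contrasts other than T1 against T0 gave no call. Sex was not part of how the genes were chosen. The comparison by sex and those between the sets still use the same levels as that choice and are not independent of it. Between females and geldings of the validation set, with the time point as a covariate, none of the 10 genes passed (limma, adjusted p from 0.698 to 0.999), none had an unadjusted p under 0.05, and the log2 differences, females minus geldings, ran from -0.37 in BMPR2 to 0.25 in ID3. The same fit called 0.0402% of all 17401 gene names. ID1 averaged -5.64 in the 3 females and -4.85 in the 4 geldings at T0, and -1.21 in the 3 females and -1.28 in the 10 geldings at T1. Females minus geldings, adjusted for time, the ID1 difference was -0.30 (SE 0.45). The fit took a single sex difference for both times, and a difference confined to T0 or T1 was not tested. At T0 BMPR2 ran from -2.79 to -2.76 in the 3 females and from -2.31 to -0.84 in the 4 geldings. Its T1 means were -1.13 and -1.20. SMAD7 ran from -4.02 to -3.70 and from -4.65 to -4.10 at T0, with T1 means of -4.60 and -4.13. The other genes overlapped between the sexes at T0.

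The sets were also compared with each other at a given time, as a description, because these levels also served to choose the genes. At T1, 0 of the 10 genes were called between the validation and the experimental horses (limma, adjusted p from 0.861 to 0.984), 0 had an unadjusted p under 0.05, and 0% of all 18624 gene names tested were called. ID1 was -1.27 ± 0.99 (SD, n = 13) in the validation and -1.01 ± 1.85 (SD, n = 3) in the experimental horses. At T0 again 0 of the 10 were called, each at an adjusted p of 0.9998, 0 had an unadjusted p under 0.05, and 0% of 17882 gene names were called. ID1 at rest was -5.19 ± 0.92 (SD, n = 7) against -5.84 ± 1.14 (SD, n = 3).

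Among the validation horses at T1, the ID1 and ID2 levels varied together with the main scaling, a call that was lost with both other scalings run. These levels are among those by which the genes were chosen. The test is therefore not independent of that choice, and its p-values are given as a description. Variation between horses at a single time was not the criterion of the choice. Over the 13 validation horses at T1 the 2 levels gave Pearson r = 0.86 (permutation p = 0.00036, adjusted p = 0.0324 over 90 pairs at both times) and Spearman rho = 0.85 (permutation p = 0.00043, adjusted p = 0.0387). Horse 62 was the highest for both, at 0.90 for ID1 and 3.50 for ID2, and horse 17 was the lowest for ID2 at 1.99 and second lowest for ID1 at -2.18. Without the 2 horses farthest from the ID1 median r was 0.81. A scan day held 1 to 4 of these arrays, too few for a value of its own. After subtracting the mean of each scan day r was 0.94, but the same step took ID1 with ID3 from 0.10 to 0.89 and ID2 with ID3 from 0.12 to 0.78, so it does not set the ID1 and ID2 pair apart. The adjusted p was 0.121 with the deposited values (r = 0.82) and 0.313 after quantile normalization (r = 0.77), so the call rests on the scaling although the direction did not turn. At rest the pair gave r = 0.51 over 7 horses (exact permutation p = 0.224, adjusted p = 0.618).

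No other pair passed. Of 45 pairs at T1, 7 had an unadjusted Pearson p under 0.05 and only ID1 with ID2 remained after adjustment. ID2 and TGFBR2 gave r = -0.65 (permutation p = 0.0139, adjusted p = 0.222), ID1 and TGFBR2 r = -0.61 (permutation p = 0.0251, adjusted p = 0.251), BMPR2 and ACVR1 r = 0.70 (permutation p = 0.00847, adjusted p = 0.222), and ID3 and SMAD7 r = 0.67 (permutation p = 0.0119, adjusted p = 0.222). Of 45 pairs at T0, 5 had an unadjusted exact permutation p under 0.05 and 0 passed, the smallest adjusted p being 0.222.

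**Figure D3:**
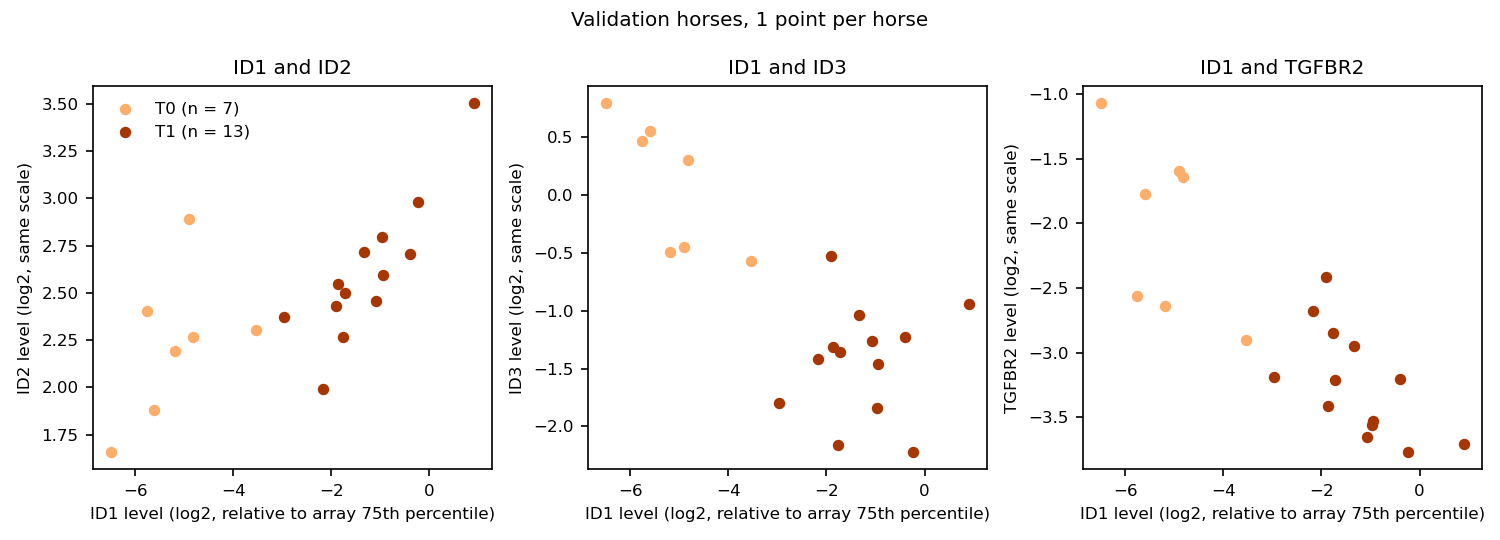
Levels of ID1 (x axis) against ID2, ID3 and TGFBR2 (y axes) in the validation horses, on the scale used for all levels, with 1 point per horse, orange at T0 (n = 7) and brown at T1 (n = 13). Among the brown points ID2 goes up with ID1 (r = 0.86), and the T0 and T1 points separate along the ID1 axis.

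Genes whose levels most resembled those of the ID genes over the same 13 arrays were sought among 10560 genes with a symbol, as a description, and all such values share the scaling of the arrays. For ID1 these were ZNRF1, a ubiquitin ligase (r = 0.90), EMC8, of the membrane protein insertion complex (r = 0.85), and CYBB, the catalytic subunit of the phagocyte oxidase (r = 0.83). Over the 7 horses at T0 the same genes gave r = 0.77, -0.48 and -0.54 with ID1. For ID2 they were ECHDC1, a metabolic proofreading enzyme (r = 0.90), DIMT1, a ribosomal RNA methyltransferase (r = 0.90), and again ZNRF1 (r = 0.86), with r = 0.44, 0.18 and 0.36 at T0. At T1 against T0 these 5 genes differed by -0.70 to 0.22 on the log2 scale in the validation set. For ID3 they were PRKCQ, the protein kinase C theta of T cell activation (r = 0.92), YWHAQ, a 14-3-3 protein (r = 0.90), and NEIL1, a DNA glycosylase (r = 0.90), with r = 0.41, 0.59 and -0.08 at T0. These 3 were lower at T1 in the validation set, by 1.65, 0.92 and 2.15.

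The other genes of the pathway were called no more often than the array as a whole. Of 85 other genes of the pathway, listed by role, 77 had a probe. In the experimental set 59 were tested, of which 3 were called higher and 1 lower, a share of 6.78% against 10.1% of all gene names. In the validation set 58 were tested, with 11 higher and 10 lower, a share of 36.2% against 44.2%. Their median log2 difference was 0.26 in the experimental set, against 0.03 over all gene names, and 0.12 in the validation set, against -0.07. Both shares lay below those of all gene names. The change itself differed between the sets for 0 of 59 genes (limma interaction term, 0 with an unadjusted p under 0.05, and 0% of 17884 gene names called).

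Called in both sets and in the same direction were THBS1, INHBA, ENG and SMAD3. THBS1 encodes thrombospondin 1, an activator of latent TGF beta. It was -2.83 to -2.51 at T0 and -0.75 to 0.11 at T1 in the experimental set, 5.07-fold higher (adjusted p = 0.00697, 3 of 3 horses). In the validation set it was -3.20 to -0.91 at T0 and -0.72 to 0.34 at T1, with no overlap and 4.07-fold higher (adjusted p = 3.3e-06). Under normexp correction with quantile normalization the log2 difference in the experimental set was 1.66 in place of 2.34, and with no filter on dim probes the adjusted p there was 0.0784.

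INHBA, the beta A subunit of activin, rose by 2.20 (SE 0.37, adjusted p = 0.0123, 3 of 3 horses) and by 1.38 (SE 0.34, adjusted p = 0.00232) on the log2 scale. It was dim, well above background on 3 of 7 validation arrays at T0 and 11 of 13 at T1, and under normexp correction with quantile normalization the differences were 0.60 (adjusted p = 0.098) and 0.29 (adjusted p = 0.0234). The deposited values gave 0.59 and 0.29, and the experimental call was lost under 4 of 10 alternatives, with adjusted p up to 0.106. ENG, endoglin, a co-receptor of BMP9 and TGF beta on endothelium and monocytes, rose by 1.67 (SE 0.39, adjusted p = 0.0342, 3 of 3 horses) and 1.39 (SE 0.35, adjusted p = 0.00307). With scan day in the model the ENG difference in the validation set was 0.80, with an adjusted p of 0.0937, and its experimental call was lost under 5 of 11 alternatives, with adjusted p up to 0.16. Under normexp correction with quantile normalization the differences were 0.81 and 0.61, and in the deposited values 0.83 and 0.63.

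SMAD3, which carries the TGF beta signal from TGFBR2, fell by a log2 difference of -1.33 (SE 0.35, adjusted p = 0.0464, 3 of 3 horses) and of -1.36 (SE 0.32, adjusted p = 0.0018). It went from between -1.93 and -1.65 at T0 to between -3.68 and -2.86 at T1 in the experimental set, and the 2 times did not overlap. In the validation set it ran from -2.40 to -0.78 at T0 and from -4.02 to -1.78 at T1. Its call in the experimental set was lost under 8 of 11 alternatives, with adjusted p up to 0.222. The experimental difference was -0.75 under normexp correction with quantile normalization, -0.81 in the deposited values and -0.77 with the mean of its probes, whereas it stayed at -1.33 with no filter on dim probes (adjusted p = 0.177) and with all 26 arrays in 1 fit (adjusted p = 0.0842). In the validation set the first 2 of these settings gave -0.78 and -0.84.

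Within the roles, the following genes are named after their values were seen, all from the validation set, where 44.2% of all gene names were called. The share called was 33.3% of the ligands, 50% of the receptors, 40% of the SMADs, 41.7% of the inhibitors, 25% of the adaptors and 50% of the targets, near or below that of the array or resting on few genes. Of 9 ligands tested INHBA was higher, and BMP2 and BMP4 were lower, by 1.25 (adjusted p = 0.000115) and 1.15 (adjusted p = 0.000274) on the log2 scale. Of 6 receptors ENG and ACVR1B, a type I receptor for activin, were higher, and BMPR1A, a type I BMP receptor, was lower by 1.31 (adjusted p = 0.000569). In the experimental set BMP2, BMP4 and BMPR1A gave -1.26, -1.21 and -1.19, with adjusted p of 0.057, 0.0722 and 0.0658. Of 5 SMADs none was higher, and SMAD3 and SMAD5, a relative of SMAD1, were lower, SMAD5 by 0.60 (adjusted p = 0.0351). SMAD4, the partner shared by both arms, differed by 0.23 (adjusted p = 0.201).

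Of 12 inhibitors 4 were called higher. These were BAMBI, a decoy receptor, by 0.77 (adjusted p = 0.016), SMURF2, a ubiquitin ligase acting on receptors and SMADs, by 0.53 (adjusted p = 0.00439), SKI, a SMAD co-repressor, by 0.55 (adjusted p = 0.00747) and PPM1A, a phosphatase of SMADs, by 0.75 (adjusted p = 0.000418). NEDD4L, another ligase, was lower by 1.34 (adjusted p = 0.00036). These 5 genes had adjusted p values of 0.0801 to 0.246 in the experimental set.

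Of 8 further targets of the pathway 2 were higher, KLF10, an early TGF beta response gene (0.72, adjusted p = 0.00441), and JUNB (0.95, adjusted p = 0.00506), and 2 were lower, MYC, a growth gene repressed by TGF beta (-0.40, adjusted p = 0.0345), and HAMP, the hepcidin gene and a liver target of BMP6 (-0.66, adjusted p = 0.0108). THBS1 was the 1 gene called of 8 for ligand release and storage. Of 8 adaptors and co-activators TRIM33, a ligase that binds SMADs, was higher by 0.45 (adjusted p = 0.00652), and RUNX3, a lymphocyte transcription factor that partners SMADs, was lower (-0.36, adjusted p = 0.0205). None of the targets, adaptors and co-activators named here passed in the experimental set. KLF10 gave 1.22 (adjusted p = 0.0516), JUNB 0.88 (adjusted p = 0.108) and TRIM33 0.50 (adjusted p = 0.341) in that set, each higher in horses 2, 32 and 41. In the same set MYC gave -0.42 (adjusted p = 0.464), HAMP -0.42 (adjusted p = 0.469) and RUNX3 -0.15 (adjusted p = 0.783). There MYC was higher in horse 41, by 0.35, and HAMP changed by -0.05 and 0.03 in horses 32 and 41. ID4, the remaining ID gene, differed by -0.07 and -0.00 in the experimental and validation sets. TCF3, which encodes the E proteins E12 and E47 that ID proteins bind, was lower by 0.90 (adjusted p = 8.4e-05) in the validation set and gave -0.85 (adjusted p = 0.12) in the experimental set, whereas TCF12, another E protein gene, differed by 0.26 (adjusted p = 0.133) in the validation set. TGFB1, the main TGF beta of blood cells, differed by -0.04 and -0.17 (adjusted p = 0.94 and 0.293).

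**Figure D4:**
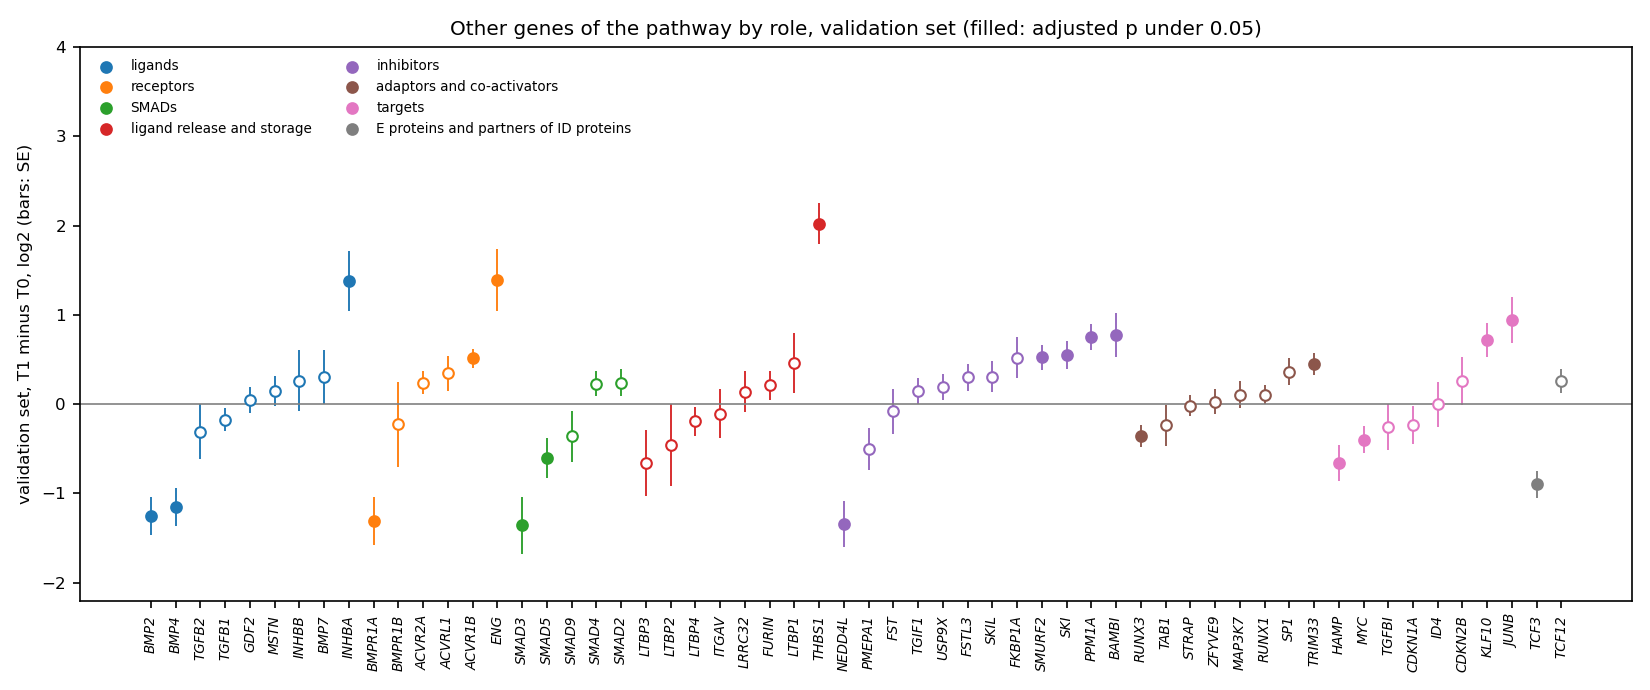
Difference between T1 and T0 in the validation set (y axis, log2, bars for SE) for the 58 other pathway genes tested, coloured and grouped by role; filled circles passed an adjusted p of 0.05. THBS1 at 2.02, ENG at 1.39 and INHBA at 1.38 are the highest points, and SMAD3 at -1.36, NEDD4L at -1.34 and BMPR1A at -1.31 the lowest.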

How the data were processed

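Whole blood RNA of 26 samples was hybridised to an equine custom array. The deposited files hold the spot intensity (processed signal) of each array on a linear scale, background-corrected and detrended by the authors with Feature Extraction 10.7.3.1, with no normalization between arrays. The authors also deposited a table of log2 values, quantile normalized as its near-equal columns show; limma is named in the submitters' processing notes, with no version. These log2 values were used as an alternative.

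Here control spots and 386 outlier spots were left out, and log2 of the processed signal minus the 75th percentile of each array was taken. Spots of a probe were averaged, and the brightest probe stood for a gene name. Gene names were tested with limma 3.58.1 (R 4.3.3) if flagged well above background on 3 or more experimental arrays, 7 or more validation arrays, or 3 or more where the sets were compared, with Benjamini-Hochberg adjustment over all of them and a threshold of 0.05. Saturation touched 431 spots, all from validation horse 34. The horse was a fixed block in the experimental set, since the labels give both arrays of a pair the same animal; the correlation of the 2 deviations of a horse from the group means was -0.01, 0.21 and 0.19 for horses 2, 32 and 41. Both arrays of a horse were never on one slide or scanned on one day in this set, so within-day values exist for the validation set only. Pairs of genes were tested by permutation (100000 resamples at T1, exact at T0). The fits were tested on simulated data.

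The 10 genes and all gene lists were chosen with earlier results of these data known. Named are the 10 genes, the pathway genes called in both sets in the same direction, or in opposite directions, and the 3 genes with the highest correlation with each ID gene, with further pathway genes of each role, called or not in the validation set, named after their values were seen. Symbols came from the array annotation, RefSeq identifiers and the study's additional files; where several names gave a symbol the brightest was used. Platelet, red cell and endothelial markers were also listed; 0 of 3 platelet, 1 of 4 red cell and 2 of 3 endothelial markers tested were called in the validation set. For 1 platelet and 2 red cell markers the probe was not well above background on any array. Alternatives covered the background correction, normalization, filter, probes, blocks, sex, scan day, slide and single horses.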

Additional observations from a re-analysis of the deposited data

How the results depend on the processing

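The differences of ID1, ID2, ID3, BMPR2 and TGFBR2 between T1 and T0 kept their sign in both sets under each alternative that gave a value. ID1 did not pass the filter on every array in either set, nor the filter on dim probes without horse 41, so those settings gave no ID1 value. ID3 ranged from -2.09 to -1.25 in the experimental and from -1.72 to -1.19 in the validation set, and TGFBR2 from -1.62 to -0.76 and from -1.42 to -0.64. The sign of TGFBR1 turned to -0.00 without experimental horse 2, that of SMAD1 to -0.28 with the mean of its probes and to -0.15 without horse 41, and that of SMAD7 in 2 experimental and 3 validation alternatives. The count of 21 pathway genes called in the validation set stayed between 19 and 23. The count of 4 in the experimental set was 0 with no filter on dim probes (limma, 12 with an unadjusted p under 0.05), 8 with a filter on every array, 8 with all 26 arrays in 1 fit, and 1 to 7 when a horse was left out (1 without horse 2, 3 without horse 32, 7 without horse 41). Without pairing, that is with no replicate block, it was 6. The cause was not tested. The 1 pair of genes called at T1 became 0 with the deposited values and 0 after quantile normalization. The comparisons by sex and between the sets called 0 of the genes tested under every alternative run, which were all 10 except with the filter on every array (8 by sex and 9 between the sets). Signal over background limits genes that were dim at rest, ID1 and INHBA among them.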
